A study of Homo sapiens with 5 samples.

Results

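The 10 genes followed here mark epithelial or intestinal identity, and they were read in the chromatin of HCT116, an established human colorectal cancer cell line. They were KLF5, CDX2, HNF4A, GATA6, ELF3, CDH1, EPCAM, KRT8, KRT18 and VIL1. A summit, the single base at which a ChIP-seq peak was highest, was assigned to a gene when it lay within the gene's hg19 span, given to the nearest kb, or at most 20 kb outside it. Of the 209263 summits in 5 lists, 128 did so. The 10 windows covered 716 kb in all. Lists came from chromatin immunoprecipitated for H3K27ac (histone H3 acetylated at lysine 27) after ENO1-IT1 siRNA and after control siRNA, for KAT7 after ENO1-IT1 siRNA and after control siRNA, and from input DNA. ENO1-IT1 is a long noncoding RNA, and cells were transfected for 48 h. The input label does not name an siRNA. Each group held 1 library of 1 cell line, so no difference between siRNAs could be set against replicate error and none was tested. Groups follow the sample titles, and the lists hold no RNA level by which the knockdown could be checked. In such bulk chromatin, fewer cells carrying a mark and less of the mark per cell cannot be told apart.

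H3K27ac is laid down at active promoters and enhancers. KAT7, also called HBO1, is a MYST-family acetyltransferase that works in complexes with BRPF or JADE proteins on histones H3 and H4. Simple epithelia are held by a core of transcription factors, among them KLF5, ELF3 and, in the gut, CDX2, HNF4A and GATA6. Their surface and scaffold proteins include E-cadherin, EPCAM, keratins 8 and 18 and, on the brush border of enterocytes, villin.

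At these genes most H3K27ac summits had a partner within 500 bp in the list of the other siRNA, and 2 KAT7 summits of each list did. These shares lay near those of the whole lists, so the contrast between marks is not particular to these genes. Matched ENO1-IT1 siRNA H3K27ac summits ran from 0 of 2 at HNF4A to 4 of 4 at KRT18. There were 48 H3K27ac summits in ENO1-IT1 siRNA cells and 37 in control siRNA cells. KAT7 had 8 summits in ENO1-IT1 siRNA cells and 35 in control siRNA cells. Input had none, and the nearest input summit to any of the 128 was 489 kb away. The score of a summit was the authors' value, a -log10 p or q from the peak caller, which grows with sequencing depth. Scores of different lists are therefore not on a common scale, and the depth of the libraries is unknown.

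The promoters of the transcription factor genes are shown first, because H3K27ac beside the start was listed at 4 of these 5 genes and not at HNF4A. Promoter sequences placed by RefSeq (GRCh38.p14) starts were at hand for 6 of the 10 genes. Those of KRT8 and of the downstream HNF4A start were at hand but are not shown. Each sequence runs 5′ to 3′ on the gene's strand from 250 bases before the start to 50 bases into the gene. Capitals mark matches on either strand to 4 short motifs. The TATA box, searched as TATAAA, sets the place of the start in some promoters. The CCAAT box, searched by those letters, is read by NF-Y. A GC box, searched as GGGCGG, is read by Sp1 and by Krüppel-like factors. An E-box, searched as CACCTG, is read by repressors of epithelial genes such as ZEB1 and SNAI1. No match overlapped another in the sequences shown. The GRCh38 positions cannot be set beside the hg19 positions of the summits.
KLF5, upstream start, chr13:73054726-73055025, + strand: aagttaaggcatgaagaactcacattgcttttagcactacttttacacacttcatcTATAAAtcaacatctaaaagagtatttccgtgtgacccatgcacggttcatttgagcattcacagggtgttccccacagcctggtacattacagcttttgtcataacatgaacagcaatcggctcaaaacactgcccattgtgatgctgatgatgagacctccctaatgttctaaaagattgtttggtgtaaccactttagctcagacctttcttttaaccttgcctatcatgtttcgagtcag
KLF5, downstream start, chr13:73058755-73059054, + strand: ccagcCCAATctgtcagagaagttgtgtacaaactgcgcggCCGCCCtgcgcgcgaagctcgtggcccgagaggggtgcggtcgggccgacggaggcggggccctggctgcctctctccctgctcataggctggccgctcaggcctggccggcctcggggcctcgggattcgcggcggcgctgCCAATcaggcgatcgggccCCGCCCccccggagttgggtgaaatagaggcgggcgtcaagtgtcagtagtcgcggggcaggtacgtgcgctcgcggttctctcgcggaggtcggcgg
ELF3, chr1:202010337-202010636, + strand: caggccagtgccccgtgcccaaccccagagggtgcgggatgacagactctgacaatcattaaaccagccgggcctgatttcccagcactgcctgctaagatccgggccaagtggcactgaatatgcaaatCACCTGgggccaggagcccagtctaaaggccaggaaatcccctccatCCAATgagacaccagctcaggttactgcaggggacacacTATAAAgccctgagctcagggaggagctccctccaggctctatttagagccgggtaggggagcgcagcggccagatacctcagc
GATA6, chr18:22169339-22169638, + strand: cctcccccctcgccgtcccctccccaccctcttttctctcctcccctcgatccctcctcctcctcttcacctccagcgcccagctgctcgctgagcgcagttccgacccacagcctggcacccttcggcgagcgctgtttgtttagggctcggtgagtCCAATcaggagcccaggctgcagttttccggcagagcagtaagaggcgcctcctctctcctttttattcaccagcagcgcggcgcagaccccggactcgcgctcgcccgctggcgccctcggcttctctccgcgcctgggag
CDX2, chr13:27969266-27969565, - strand: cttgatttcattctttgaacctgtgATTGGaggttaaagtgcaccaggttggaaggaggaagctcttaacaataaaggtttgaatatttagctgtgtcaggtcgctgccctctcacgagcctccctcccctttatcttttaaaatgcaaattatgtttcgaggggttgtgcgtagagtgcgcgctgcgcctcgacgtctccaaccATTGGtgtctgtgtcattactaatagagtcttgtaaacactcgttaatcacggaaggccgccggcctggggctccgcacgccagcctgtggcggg
HNF4A, upstream start, chr20:44355449-44355748, + strand: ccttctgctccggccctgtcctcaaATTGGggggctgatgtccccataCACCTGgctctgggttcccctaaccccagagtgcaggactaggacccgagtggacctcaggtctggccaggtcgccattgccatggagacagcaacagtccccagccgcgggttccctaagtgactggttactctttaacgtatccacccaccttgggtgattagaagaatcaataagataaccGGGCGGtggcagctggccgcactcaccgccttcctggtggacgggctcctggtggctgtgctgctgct

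The sequences differed widely in composition. The downstream KLF5 start had 71.3% G and C and 37 CpG dinucleotides, with 2 CCAAT boxes and 2 GC boxes. The upstream KLF5 start had 40.7% G and C, 4 CpG and 1 TATA box, which began 194 bases before the start. GATA6 was also rich in G and C, at 66.7%, with 25 CpG and 1 CCAAT box, at 92 bases before the start. ELF3 held a TATA box that began 34 bases before the start, with a CCAAT box and an E-box farther upstream, and 7 CpG. CDX2 had 50.3% G and C, 16 CpG and 2 CCAAT boxes. HNF4A had 60.0% G and C, 11 CpG and 1 match each to the CCAAT box, the GC box and the E-box at the upstream start. Among all 35116 RefSeq promoters of this length the median was 58.7% G and C with 14 CpG, and 11.5% held a TATA box, 34.6% a CCAAT box, 45.0% a GC box and 20.6% an E-box as searched here. A match is a description of the letters and not a bound site.

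**Figure D1:**
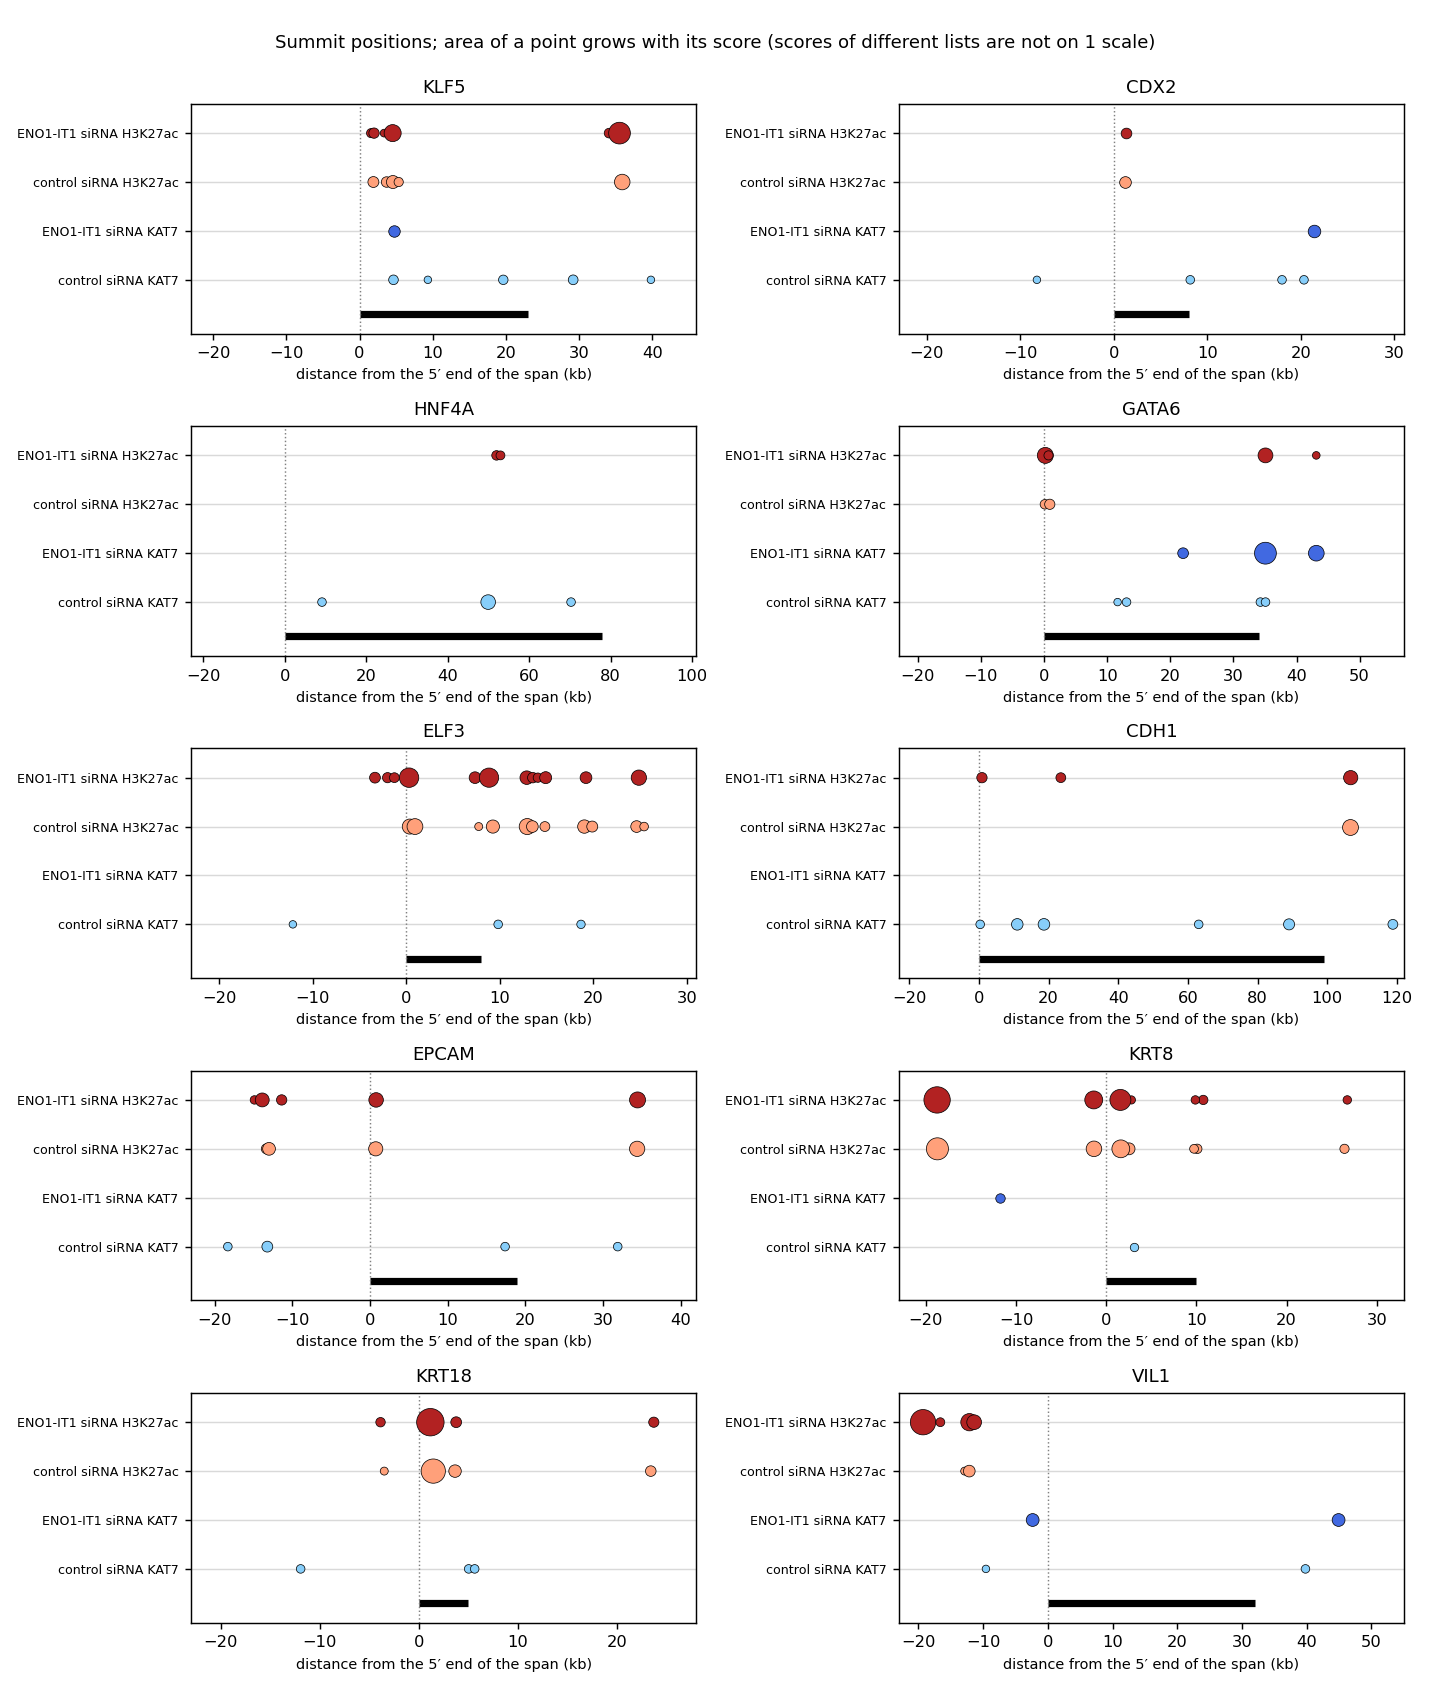
Positions of summits at the 10 loci, as the distance in kb from the 5′ end of each span, in the rows ENO1-IT1 siRNA H3K27ac, control siRNA H3K27ac, ENO1-IT1 siRNA KAT7 and control siRNA KAT7; the black bar is the span and the area of a point grows with its score. ELF3 has 12 and 11 H3K27ac summits in ENO1-IT1 siRNA and control siRNA cells, HNF4A has 2 and 0, and KAT7 points seldom stand at the same distance in both conditions.

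KLF5 encodes a zinc finger factor of proliferating intestinal crypt cells, and it was the sole locus at which all 4 immunoprecipitated lists had a summit within 500 bp of one another. This site on chromosome 13 had H3K27ac at 73633528 (score 19.2) in ENO1-IT1 siRNA cells and at 73633565 (score 10.0) in control siRNA cells. KAT7 lay at 73633643 (score 7.15) in ENO1-IT1 siRNA cells and at 73633641 (score 4.12) in control siRNA cells. The site was 4.53 to 4.64 kb inside the span, where RefSeq separates the downstream start from the upstream one by 4.03 kb. Of the ENO1-IT1 siRNA H3K27ac summits of all 10 loci, 1 of 48 had the 3 other lists within 500 bp, and in the whole list 7.70% did.

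Nearer the 5′ end of KLF5 the first H3K27ac summit was at 73630582 (score 3.42) in ENO1-IT1 siRNA cells and at 73630893 (score 6.15) in control siRNA cells. H3K27ac also lay beyond the far end of the gene. The highest-scored KLF5 summit in ENO1-IT1 siRNA cells was at 73664529 (score 33.2, in the top 5.87% of its list). That of control siRNA cells was 371 bp away at 73664900 (score 15.6, in the top 16.3%). Both stood in the 20 kb margin, 35.5 and 35.9 kb from the 5′ end, with the nearest KAT7 summit of the same condition 30886 and 3922 bp from them. The highest-scored control KAT7 summit of the window, at 73658196 (score 4.28), stood apart from H3K27ac as well, 6704 bp from the nearest control summit. A place in the list describes 1 list, and places in lists of unlike length show no change.

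ELF3, an ETS-family factor restricted to epithelia, carried the densest acetylation of the 10 loci. It had 12 H3K27ac summits in ENO1-IT1 siRNA cells and 11 in control siRNA cells. Joined where neighbours were at most 10 kb apart, they made 1 cluster of 28.2 kb in ENO1-IT1 siRNA cells and 1 of 25.1 kb in control siRNA cells. By number of summits these ranked 66 of 17974 and 78 of 15496 clusters. At the start of the span H3K27ac was at 201979298 on chromosome 1 (score 25.9) in ENO1-IT1 siRNA cells and at 201979375 (score 14.3) in control siRNA cells. A further control summit at 201979928 (score 16.2) had its nearest ENO1-IT1 siRNA summit 630 bp away. The start was thus acetylated in both conditions, with summits 77 bp apart. Further summits near it differed between the lists. ENO1-IT1 siRNA cells had H3K27ac upstream of the span at 201977726 (score 4.40) and 201977001 (score 4.98). The nearest control summit was 1649 and 2374 bp from these. KAT7 was not listed in the ELF3 window in ENO1-IT1 siRNA cells. It had 3 summits in control siRNA cells, with scores from 1.31 to 2.68.

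GATA6, a zinc finger factor of endoderm and gut, had H3K27ac at its start in both conditions. Its KAT7 summits stood from 11.7 kb inside the 5′ end to beyond the far end. At the start on chromosome 18 the score was 16.6 at 19749201 in ENO1-IT1 siRNA cells, in the top 22.4% of that list. The control siRNA score was 3.96 at 19749137, in the top 74.1%, and 5.03 at 19749906. Just beyond the span, 35.1 kb from the 5′ end, the ENO1-IT1 siRNA lists had KAT7 at 19784076 (score 33.5, top 8.76%) and H3K27ac 7 bp away at 19784083 (score 13.9). The control siRNA lists had a KAT7 summit at 19784090 (score 2.68) and their nearest H3K27ac summit was 34184 bp from it. A further pair, KAT7 at 19792137 (score 15.9) and H3K27ac at 19792131 (score 1.49), was listed in ENO1-IT1 siRNA cells only. The score of 33.5 was the highest of the 8 ENO1-IT1 siRNA KAT7 summits at these loci, and no replicate shows whether it recurs. The last of the 3 ENO1-IT1 siRNA KAT7 summits, at 19771032 (score 5.83), had its nearest control KAT7 summit 8962 bp away. Control KAT7 was also listed inside the span, at 19760651 (score 1.31) and 19762070 (score 2.61).

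CDX2, the homeobox factor that specifies intestinal identity, had 1 H3K27ac summit per condition. It lay at 28542711 on chromosome 13 (score 5.75, top 64.7%) in ENO1-IT1 siRNA cells and at 28542854 (score 7.49, top 44.5%) in control siRNA cells, 143 bp apart and 1.29 and 1.15 kb inside the 5′ end. Acetylation of this gene was thus listed near its start in both conditions, in the lower part of the ENO1-IT1 siRNA list by score and near the middle of the control siRNA list. KAT7 was listed 21.4 kb downstream of the 5′ end in ENO1-IT1 siRNA cells, at 28522582 (score 9.12), which was 1094 bp from a control siRNA summit with a score of 2.68. The 4 control KAT7 summits had scores from 1.31 to 2.68.

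HNF4A, a nuclear receptor of liver and gut with alternative promoters, was the one locus with no H3K27ac summit in control siRNA cells. H3K27ac had 2 summits in ENO1-IT1 siRNA cells, at 43035979 and 43036946 on chromosome 20, with scores of 3.96 and 3.05 in the top 82.2% and 91.2% of the list. The nearest control siRNA summit to 43035979 was 68616 bp away. The ENO1-IT1 siRNA summits stood 52.0 and 52.9 kb inside the span. RefSeq puts the downstream HNF4A start 45.5 kb after the upstream one. KAT7 was not listed in ENO1-IT1 siRNA cells. In control siRNA cells it was at 43033927 with a score of 13.4, in the top 1.63% of its list, and it was the one of the 35 control KAT7 members with a score of at least 10, which 2.75% of that list reached. The nearest H3K27ac in control siRNA cells was 70668 bp from it.

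CDH1, which encodes the adherens junction protein E-cadherin, had little acetylation near its start. In ENO1-IT1 siRNA cells H3K27ac was listed at 68771852 on chromosome 16 (score 5.20, top 71.0%), 0.852 kb inside the 5′ end, and at 68794508 (score 4.40). No H3K27ac was listed inside the span in control siRNA cells. The strongest H3K27ac of the window was shared, at 68877751 (score 12.5) in ENO1-IT1 siRNA cells and 68877656 (score 16.3) in control siRNA cells. It stood 106.8 and 106.7 kb from the 5′ end, past the end of CDH1, and in RefSeq GRCh38.p14 the left end of the neighbouring gene TANGO6 is 106.2 kb from that of CDH1. KAT7 was not listed in the CDH1 window in ENO1-IT1 siRNA cells and had 6 summits in control siRNA cells. The highest control scores were 7.38 at 68789657 and 7.25 at 68781994, in the top 6.77% and 6.85% of the list. Next was 6.41 at 68860054, and the nearest ENO1-IT1 siRNA KAT7 summits to these 3 were 125189 to 203249 bp away.

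EPCAM, a homophilic adhesion molecule of epithelial cells, had H3K27ac at its start in both conditions. The summits were at 47596801 on chromosome 2 (score 13.2) in ENO1-IT1 siRNA cells and at 47596753 (score 12.4) in control siRNA cells, 48 bp apart. These were not the highest scores of the window. A group 11.4 to 14.9 kb upstream held 3 summits in ENO1-IT1 siRNA cells, led by 47582142 (score 11.8), and 2 in control siRNA cells, led by 47583017 (score 9.50). The control KAT7 summit at 47582797 (score 6.02) lay between the control H3K27ac summits of this group. KAT7 was not listed in the EPCAM window in ENO1-IT1 siRNA cells.

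KRT8 and KRT18 encode the type II and type I keratins that pair in the filaments of simple epithelia, and they held the highest-scored acetylation of the 10 loci in both conditions. The KRT18 summit was at 53343156 on chromosome 12 in ENO1-IT1 siRNA cells, with a score of 54.7 that ranked 451 of 31839. That of control siRNA cells was at 53343449, with a score of 42.1 that ranked 462 of 29429. The KRT8 window held 7 summits in each condition. Its highest was 18.8 kb upstream of the KRT8 span, at 53318763 (score 50.3, rank 571) in ENO1-IT1 siRNA cells and at 53318726 (score 34.2, rank 774) in control siRNA cells. Next came a summit inside the span, at 53298433 (score 30.8) in ENO1-IT1 siRNA cells and 53298387 (score 21.4) in control siRNA cells. The one nearest the 5′ end was at 53301388 (score 21.6) in ENO1-IT1 siRNA cells and 53301365 (score 15.6) in control siRNA cells. These 3 positions thus kept their order of scores within each list, and their summits were 23 to 46 bp apart between conditions. RefSeq draws KRT8 as a gene of 52670 bp whose 5′ end overlaps KRT18, so that the upstream summit stands within its annotated stretch as spaced there. Of the KRT8 and KRT18 summits, 6 of 7 and 4 of 4 in ENO1-IT1 siRNA cells had a control summit within 500 bp. From the side of control siRNA cells 7 of 7 and 4 of 4 had one. KRT8 had 1 KAT7 summit in ENO1-IT1 siRNA cells (score 3.88) and 1 in control siRNA cells (score 2.43), and KRT18 had none in ENO1-IT1 siRNA cells and 3 in control siRNA cells, all with a score of 2.68.

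VIL1 encodes villin, which bundles actin in microvilli. No H3K27ac summit lay inside its span in either condition, and the nearest to its 5′ end were 11.4 kb upstream in ENO1-IT1 siRNA cells and 12.1 kb upstream in control siRNA cells. The acetylation of its window lay upstream, with 4 summits in ENO1-IT1 siRNA cells and 2 in control siRNA cells. The highest in ENO1-IT1 siRNA cells was at 219263727 on chromosome 2 (score 46.2, top 2.30%), 19.3 kb upstream. The nearest control summit was 2598 bp away at 219261129 (score 29.8), which is 1.87 kb outside the window. The highest control summit inside the window was at 219270873 (score 7.49), 25 bp from an ENO1-IT1 siRNA summit with a score of 19.9. Counted past the edge of the window, this cluster held 6 summits in ENO1-IT1 siRNA cells and 4 in control siRNA cells. In RefSeq GRCh38.p14 the gene CTDSP1 occupies the stretch from 22.8 to 13.2 kb before VIL1. KAT7 had 2 summits in ENO1-IT1 siRNA cells, at 219280665 and 219327926 with a score of 9.58 each, and 2 in control siRNA cells, with scores of 1.31 and 2.68. The nearest between conditions were 5122 bp apart.

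**Figure D2:**
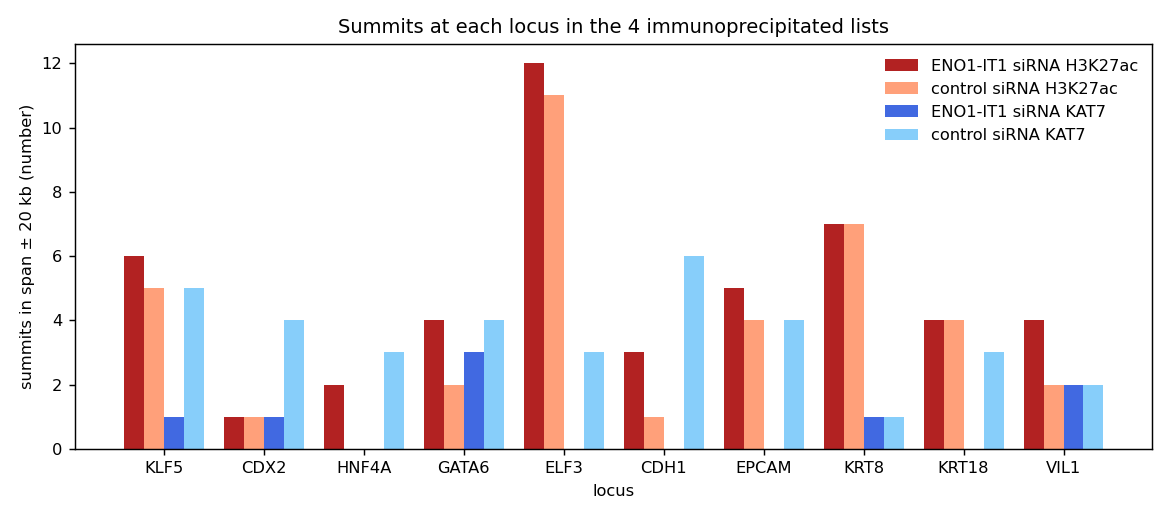
Number of summits in each span with its 20 kb margin, for the 10 loci along the horizontal axis and, from left to right in each group of bars, ENO1-IT1 siRNA H3K27ac, control siRNA H3K27ac, ENO1-IT1 siRNA KAT7 and control siRNA KAT7. H3K27ac bars are equal or higher after ENO1-IT1 siRNA at every locus, and KAT7 bars are equal or lower.

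Over the 10 loci, the ENO1-IT1 siRNA list held more H3K27ac summits at 7, as many at 3 (CDX2, KRT8 and KRT18) and fewer at 0. The ratio of 48 to 37 summits was 1.30, with an exact 95% interval of 0.827 to 2.05 for counting error only. The ratio of the whole lists, at 31839 and 29429 summits, was 1.08 and lay inside that interval. For KAT7 the ENO1-IT1 siRNA list held fewer summits at 8 loci and as many at 2 (KRT8 and VIL1). The ratio of 8 to 35 was 0.229 (0.0916 to 0.502), close to the 0.201 of the whole KAT7 lists of 24611 and 122439 summits. All loci share the same libraries, so their common direction adds no support. Per 100 kb the loci held 6.70 H3K27ac summits in ENO1-IT1 siRNA cells and 5.17 in control siRNA cells, against 1.08 and 0.996 over the stretch covered by all summits, gene-poor parts included, which is 6.22 and 5.19 times as many. For KAT7 they held 1.12 in ENO1-IT1 siRNA cells and 4.89 in control siRNA cells, against 0.826 and 4.12, or 1.35 and 1.19 times as many. Acetylation was thus denser at these loci than over the genome as a whole in both conditions, and KAT7 was at a density near that of the genome.

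Near the 5′ end of the span, within 2 kb, H3K27ac was listed at 8 loci in ENO1-IT1 siRNA cells and at 7 in control siRNA cells. These were KLF5, CDX2, GATA6, ELF3, EPCAM, KRT8 and KRT18 in both and CDH1 in ENO1-IT1 siRNA cells alone, with HNF4A and VIL1 in neither. KAT7 was listed there at 0 loci in ENO1-IT1 siRNA cells and at 1 in control siRNA cells. That locus was CDH1, with a summit score of 2.68. Such counts were not made for other genes. Whether these loci differ from other genes in H3K27ac or KAT7 near the start was therefore not tested. Of the members, 21 of 48 ENO1-IT1 siRNA and 17 of 37 control siRNA H3K27ac summits stood in clusters of at least 5, against 19.6% and 21.4% in the whole lists. Most of these were at ELF3, and the others were at KRT8 and, on the ENO1-IT1 siRNA side, VIL1.

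**Figure D3:**
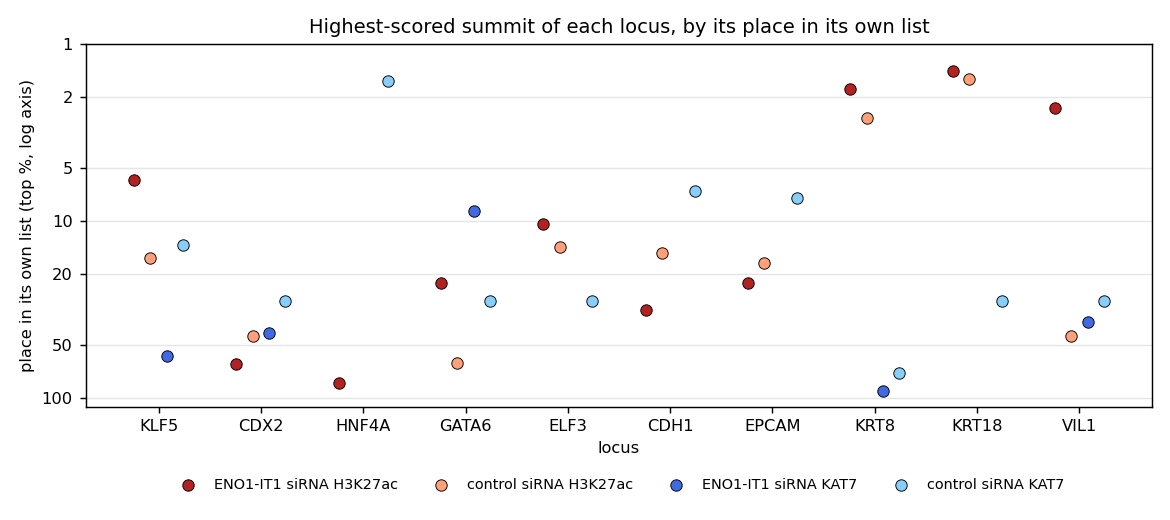
Place of the highest-scored summit of each locus in its own list, as its rank in percent of that list (log axis, strongest at the top), with points from left to right for ENO1-IT1 siRNA H3K27ac, control siRNA H3K27ac, ENO1-IT1 siRNA KAT7 and control siRNA KAT7. Tied summits all take the best rank of their tie. Control KAT7 points with a score of 2.68 therefore stand at 28.3%, although 42.7% of that list holds this same score, its median. KRT18 stands in the top 1.42% and 1.57% of the H3K27ac lists and HNF4A in the top 82.2% after ENO1-IT1 siRNA, with no control H3K27ac point.

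Most H3K27ac summits at these loci were found in both conditions. Of the 48 ENO1-IT1 siRNA summits, 30 (62.5%, 95% interval 47.4 to 76.0%) had a control summit within 500 bp, beside 64.3% of the whole list and 60.7% at like scores. Of the 37 control siRNA summits, 30 (81.1%, 64.8 to 92.0%) had an ENO1-IT1 siRNA one, beside 71.9% of the whole control list and 72.8% at like scores. Both shares lay near those of the whole lists, whose values fall within the intervals. Within 1000 bp 37 of 37 control summits had an ENO1-IT1 siRNA summit, against 87.3% of the whole list, so that at this distance no control position of the 10 loci was without one. The 18 unmatched ENO1-IT1 siRNA summits were led by those named at VIL1, GATA6 and EPCAM, by the VIL1 summit at 219271626 (score 13.6), 753 bp from a control one, and by an ELF3 summit 3.35 kb upstream of the span at 201975653 (score 5.96). The 7 unmatched control summits were at ELF3, EPCAM, KLF5 and VIL1. After the ELF3 and EPCAM summits at 201979928 and 47583017 the highest-scored were at ELF3 (201998890, score 6.23), EPCAM (47582660, score 4.48) and KLF5 (73634352, score 3.54), each 518 to 824 bp from an ENO1-IT1 siRNA summit. Among summits scoring at least 10, which are 40.1% and 31.2% of the whole lists, there were 19 in ENO1-IT1 siRNA cells and 14 in control siRNA cells. Of these 15 and 13 had a partner in the other list, against 88.0% and 81.1% of all such summits.

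Few KAT7 summits at these loci were found in both conditions, as in the whole KAT7 lists. Of the 8 ENO1-IT1 siRNA summits, 2 (25.0%, 3.19 to 65.1%) had a control KAT7 summit within 500 bp, against 32.2% of the whole list. Of the 35 control summits, 2 (5.71%, 0.700 to 19.2%) had an ENO1-IT1 siRNA one, against 6.62% of the whole list. These were the KLF5 and GATA6 sites, both with H3K27ac in at least 1 condition. The score of 2.68, the median of the control KAT7 list, was held by 17 of the 35 control summits and by 42.7% of that list. A score under 5 was held by 30 of the 35 and by 86.8% of the list, so that the scores at these loci lay near those of the list as a whole. The 8 ENO1-IT1 siRNA KAT7 summits had a median score of 9.35, beside 7.67 in their whole list. A score of at least 10 was held by 2 of the 8 (25.0%) and by 37.4% of that list.

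**Figure D4:**
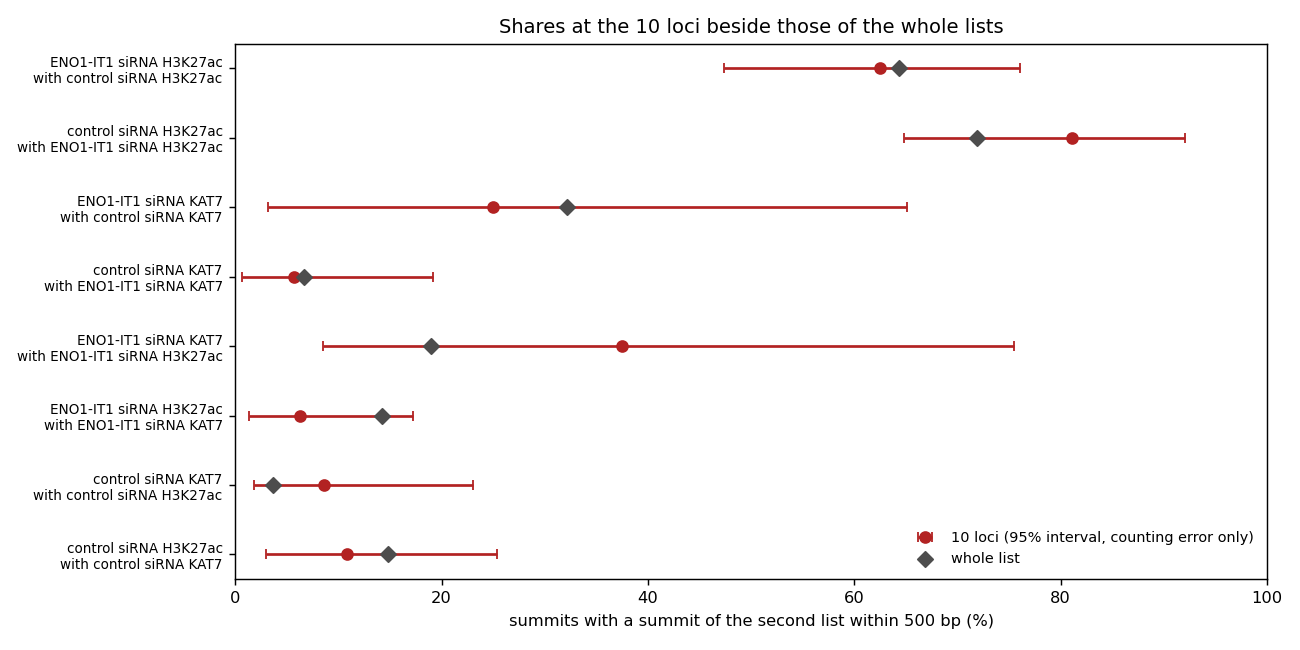
Percentage of the summits of 1 list with a summit of a second list within 500 bp, with red points for the 10 loci (bars: exact 95% interval, counting error only) and grey diamonds for the whole list. Each diamond lies within the interval of its point, with the widest bars for the 8 KAT7 summits of ENO1-IT1 siRNA cells.

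KAT7 and H3K27ac coincided at few places. In ENO1-IT1 siRNA cells 3 of 8 KAT7 summits (37.5%, 8.52 to 75.5%) had H3K27ac within 500 bp, against 19.0% of the whole list. They were the KLF5 site and both GATA6 sites. In control siRNA cells 3 of 35 (8.57%, 1.80 to 23.1%) did, against 3.67%, at KLF5, ELF3 and EPCAM. From the side of H3K27ac, 3 of 48 summits (6.25%, 1.31 to 17.2%) had KAT7 in ENO1-IT1 siRNA cells and 4 of 37 (10.8%, 3.03 to 25.4%) in control siRNA cells, against 14.3% and 14.8% of the whole lists. The main summits of the strongly acetylated keratin genes had no KAT7 within 500 bp in either condition. So did most strong sites: of all ENO1-IT1 siRNA and control siRNA H3K27ac summits scoring at least 10, 17.0% and 20.7% had KAT7. The nearest KAT7 summit to the KRT18 peak was 25333 bp away in ENO1-IT1 siRNA cells and 3576 bp away in control siRNA cells. For the highest KRT8 summit it was 6960 and 11326 bp away. Control KAT7 at 53296931 was 1456 bp from the KRT8 summit at 53298387 and 542 bp from a weaker one.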

How the data were processed

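ChIP-seq had been done in HCT116 cells for H3K27ac and KAT7 after ENO1-IT1 siRNA or control siRNA, with an input library. The submitters' processing notes name Bowtie, MACS2 and hg19. What control was used in calling, with which versions and options, is not given in the sources used here. Peak names are tagged for removal of duplicates. Every file holds 1-bp summits, and the authors deposited with each a score, the -log10 of a p or q value.

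Summits within 20 kb of the 10 hg19 spans were taken in Python 3.11.15 (pandas 2.3.3, numpy 2.4.6) with intervals from SciPy 1.17.1 and plots from matplotlib 3.10.9. Positions count from 1. A summit was shared when the other list had one at most 500 bp away. Shares have exact Clopper-Pearson 95% intervals. They allow for counting error alone, because adjacent summits depend on one another and reads without molecular identifiers can be copies. The share at like scores averages the whole list's share over 6 classes of score, with limits at 3, 5, 10, 20 and 50. The search for neighbours was tested on simulated positions. The strand of 6 genes came from RefSeq and that of CDH1, EPCAM, KRT18 and VIL1 from general knowledge. Distances between genes are as spaced in RefSeq GRCh38.p14 and were not converted to hg19. Members, lists and comparisons were chosen with earlier results of these data known. The rule for named summits took, for each gene, the highest-scored summit of each list and the one nearest the 5′ end, and, for each mark, the 5 highest-scored summits found in 1 condition. Other summits named in the text were chosen after their values were seen. The highest-scored H3K27ac summit of the EPCAM window is counted but not reported here. Other margins, distances, score minimums, lists of equal length, merged summits and leaving out each locus were tried. The share at like scores was added after seeing the data.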

Additional observations from a re-analysis of the deposited data

How the results depend on the processing

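Counts depended on the window and the score minimum. With no margin, 19 ENO1-IT1 siRNA and 16 control siRNA H3K27ac summits and 2 ENO1-IT1 siRNA and 15 control siRNA KAT7 summits remained, and 78.9% of the ENO1-IT1 siRNA H3K27ac summits had a control one. With a margin of 50 kb there were 70 ENO1-IT1 siRNA and 58 control siRNA H3K27ac summits, and 14 ENO1-IT1 siRNA and 76 control siRNA KAT7 summits. At a score of at least 10 there were 19 ENO1-IT1 siRNA and 14 control siRNA H3K27ac summits, and 2 ENO1-IT1 siRNA and 1 control siRNA KAT7 summit. The order of the KAT7 counts was thus turned, as it was in the whole lists, with 9199 and 3371 such summits. Scores of these lists are not on a common scale. With that minimum put on both lists, no KAT7 summit was shared from either side (0% and 0%). The intervals reached 84.2% from the ENO1-IT1 siRNA side and 97.5% from the control side. With the second list uncut, 1 of the 2 ENO1-IT1 siRNA KAT7 summits was shared, at GATA6, and 0 of the 1 control summit. The 1 control KAT7 summit had no H3K27ac (0%, interval up to 97.5%). Of the 14 control H3K27ac summits 0% had control KAT7 that also scored at least 10 (interval up to 23.2%). With KAT7 of any score counted, 2 of the 14 had it. Counts this small allow no reading of these shares. With lists of equal length 7 control KAT7 summits were left, beside the 8 of ENO1-IT1 siRNA cells. Of these 0% and 0% were shared, with intervals up to 41.0% for the control and 36.9% for the ENO1-IT1 siRNA summits. The calls removed by this cut were low-scored ones of the longer control list. Near-equal counts follow from the cut wherever density is near that of the whole lists, so they are not a separate result. The cut fell within a tie of 11169 control summits, broken by position, in which the KLF5 summit at 73658196 (score 4.28) stood.

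The share of H3K27ac summits found in the other condition followed the distance. Within 100 bp it was 29.2% from the ENO1-IT1 siRNA side and 37.8% from the control siRNA side (33.0% and 35.8% of the whole lists). At that distance 2.70% of control H3K27ac summits had control KAT7 (interval 0.0684 to 14.2%), against 8.7% of the whole list. Within 250 bp it was 41.7% and 56.8% (51.7% and 56.1%), and within 1000 bp it was 70.8% and 100% (75.7% and 87.3%). Leaving out each locus in turn gave 36 to 47 ENO1-IT1 siRNA and 26 to 37 control siRNA H3K27ac summits, and shares of 58.5 to 65.9% and 76.7 to 84.8%. ENO1-IT1 siRNA KAT7 summits numbered 5 to 8, with 5 left without GATA6. The share of them with a control summit ran from 14.3 to 33.3%, and the share with H3K27ac from 20% to 50%. Loci are not replicates. No paired analysis was possible because each group has 1 library. Leaving out loci apart, 59 values under the alternatives stayed within the interval of the value given or within 1.5 times its count, and 25 did not. With 8 ENO1-IT1 siRNA KAT7 summits, only gross differences between shares could be seen.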
